A study of Homo sapiens with 4 samples.

Results

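The ubiquitin-specific proteases (USPs) are the largest family of human deubiquitinases, cysteine proteases that cut ubiquitin from proteins or from ubiquitin chains. Their transcripts were followed in HCT116 cells, an established human colon carcinoma line, given the compound 7A or DMSO. The rows were chosen by name: protein-coding genes on an autosome or the X chromosome whose symbol is USP and a number, with suffix letters allowed and the USP17L copies and USPL1 left out. That rule found 52 of the 20263 genes in the deposited table. One of them, USP6NL, is no deubiquitinase: it encodes a GTPase-activating protein for RAB proteins and takes its name from the amino end of USP6. It is kept in the counts, and without it 51 genes remain.

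The 7A cells grew for 24 h with 7A, named a derivative of neratinib in the title, and the DMSO cells for the same time without it, in the same medium with serum. The title links 7A to apoptosis through p53. No dose is stated in the labels. Each group has 2 libraries, made from total RNA with an mRNA kit, and no label says whether they came from separate cultures. Total counts were 49924044 and 61605005 in 7A replicates 1 and 2, and 31120459 and 29769568 in DMSO replicates 1 and 2, so every member was sampled more deeply with 7A. Of 8 epithelial markers, EPCAM, CDH1, KRT8, KRT18, KRT19 and CLDN4 were abundant, while VIL1 and CEACAM5 had at most 4 counts in any library. CLDN4 read 892 and 905 CPM with 7A, against 409 and 21.9 CPM in DMSO replicates 1 and 2, so DMSO replicate 2 stood apart for it. Results that change without this library are given beside each gene. Leukocyte and endothelial markers had at most 21 counts, DCN, LUM and COL1A2 had none, PDGFRB had 8 to 22, and COL1A1 read 33.7 to 38.6 CPM with 7A and 54.7 to 57.6 CPM with DMSO. Mitochondrial genes took 3.04% and 4.07% of the counts with 7A and 6.59% and 7.73% with DMSO, and the part of this difference in the USP results was not tested. CPM are counts scaled to library size with TMM factors.

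Ubiquitin is attached to proteins by a relay of E1, E2 and E3 enzymes, and deubiquitinases take it off again, which can save a protein from the proteasome, end a signal or recycle ubiquitin. USPs differ in where they sit and what they act on. USP7, USP10 and USP2 are known for acting on p53 or on its ligase MDM2, USP1 acts in DNA crosslink repair, USP14 and USP5 serve the proteasome and the pool of free chains, and USP8 and USP30 work on endosomes and mitochondria.

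Most USP transcripts that changed with 7A were lower. Of 47 members with enough counts to test, 18 (38.3%) fell and 4 (8.51%) rose, while among all 14026 genes tested 24.6% fell and 23.9% rose. In either direction 22 members were called, against 48.4% of all genes. Calls are genes with an edgeR adjusted p under 0.05. In bulk RNA, fewer cells of a kind and less RNA per cell cannot be told apart. The median log2 fold change of 7A over DMSO was -0.38 over the members and -0.03 over all genes tested. Among the called members 12 fell at least 2-fold, led by USP37, USP34 and USP6, and 0 rose that far, with USP11 at 1.99-fold. USP6 had only 6 counts in each 7A library, and USP34 had 59.9 and 129 CPM in the DMSO libraries. The shares of all genes that changed at least 2-fold were not counted, so these 2 counts have no background. The 7A and DMSO libraries did not overlap for 36 of the 47 members (76.6%), close to the 78.4% of all genes tested. With a correction for GC content and length together, 12 members were lower and 10 higher, against 24.5% and 24.8% of all genes. With a correction for length alone 11 were lower and 5 higher, against 3190 lower and 3247 higher of all 14026 genes. The median over the members also moved with single libraries. It was -0.26 without 7A replicate 2 and -0.50 without DMSO replicate 1, against -0.05 and -0.02 over all genes. Without DMSO replicate 2 it was -0.28, and without 7A replicate 1 it was -0.47, against -0.01 and -0.04. With library totals alone, which shifts all genes downward (median -0.29), 25 members were lower and 3 higher, against 35.2% and 13.9% of all genes.

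**Figure D1:**
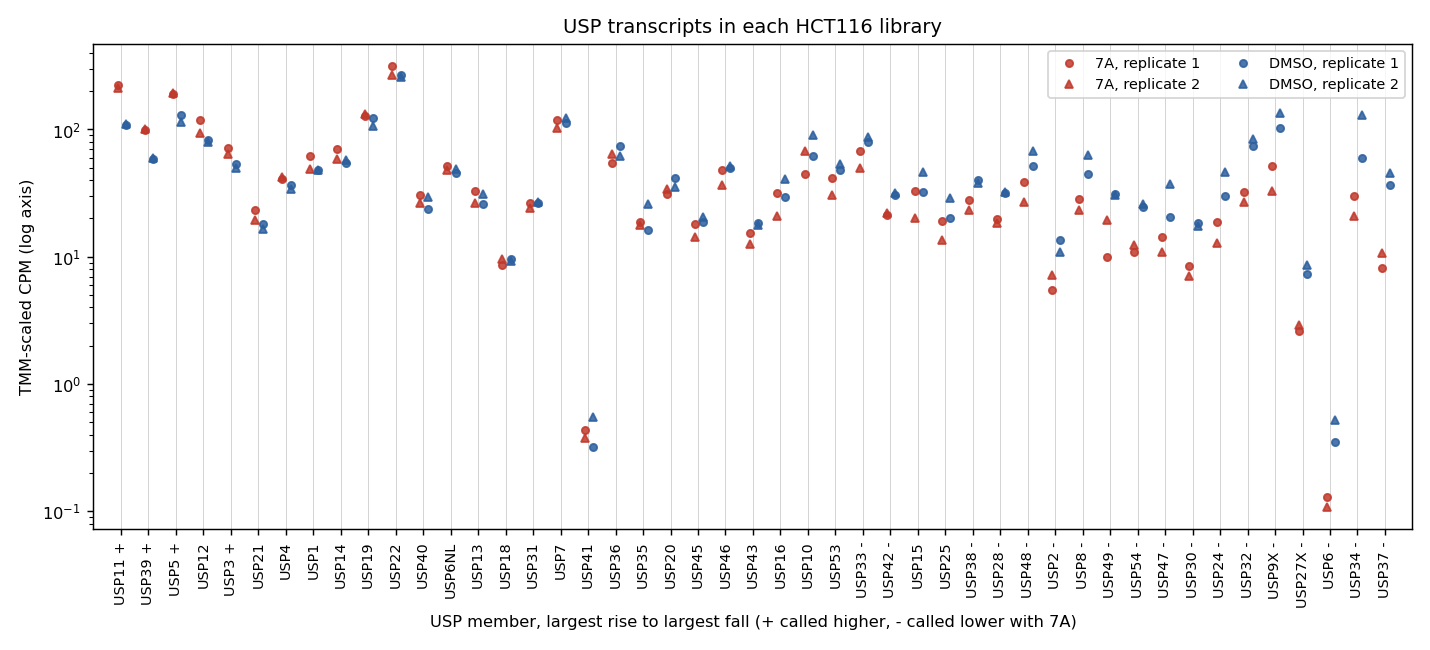
TMM-scaled CPM (log axis) of the 47 tested USP members in each library, 7A in red and DMSO in blue, with circles for replicate 1 and triangles for replicate 2. Members run from the largest rise (USP11) to the largest fall (USP37), and 4 carry a plus and 18 a minus for a call.

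Of the 5 members that were not tested, USP51 and USP29 had no count in any library, USP26 had 3 counts in DMSO replicate 1 alone, USP44 had 4 counts in DMSO replicate 2 alone, and USP50 had 2 counts in 7A replicate 1 and 1 in DMSO replicate 2. These counts lie near the floor of 3 counts that an observed 0 allows, and no fold is given.

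Calls that did not depend on a setting came from 10 members. How many of all genes kept a call in every setting was not counted, so this count has no background. USP11, USP39 and USP5 rose, and USP37, USP27X, USP9X, USP32, USP30, USP54 and USP28 fell, in each of the 19 alternative settings tried, each single library left out among them. The 12 other calls were lost with at least 1 library left out.

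USP11 had the largest rise of the family. USP11 (ENSG00000102226, chromosome X, 47232690 to 47248328 on GRCh38), a nuclear enzyme known to stabilise BRCA2 and p53, had 222 and 210 CPM in the 7A libraries, against 108 and 110 CPM in the DMSO libraries. Its values with 7A lay far above both DMSO values and the replicates were close (log2 fold change 0.99 ± 0.12, SE; edgeR adjusted p 0.00111). USP39 (ENSG00000168883, chromosome 2, 85602856 to 85649282), a spliceosome subunit of the tri-snRNP that lacks the catalytic cysteine, had 99.1 and 101 CPM with 7A and 58.4 and 59.6 CPM with DMSO (0.76 ± 0.13; edgeR adjusted p 0.00309). USP5 (ENSG00000111667, chromosome 12), which takes apart unanchored ubiquitin chains, had 191 and 193 CPM with 7A and 129 and 115 CPM with DMSO (0.65 ± 0.12; edgeR adjusted p 0.00495). The replicates of these 3 genes differed by far less than the groups. The fourth rise, of the histone H2A and H2B deubiquitinase USP3, was at the threshold. USP3 had 71.5 and 64.3 CPM with 7A and 53.8 and 49.8 CPM with DMSO (0.39 ± 0.14; edgeR adjusted p 0.0498). Leaving out any single library ended that call, with edgeR adjusted p between 0.0547 and 0.259, and 22.7% of its exon bases overlap the antisense gene USP3-AS1, from which unstranded counts could not separate it.

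USP37 had the largest fall. USP37 (ENSG00000135913, chromosome 2, 218450251 to 218568361), which opposes the anaphase-promoting complex by removing ubiquitin from cyclin A, had 8.19 and 10.7 CPM with 7A, against 36.8 and 45.1 CPM with DMSO (log2 fold change -2.11 ± 0.20; edgeR adjusted p 0.000716). The groups were far apart. Of its exon bases, 32.8% overlap VIL1 on the other strand, a gene with at most 4 counts per library. USP27X (ENSG00000273820, chromosome X, 49879948 to 49882565), a relative of USP22 that acts on histone H2B, had 2.59 and 2.93 CPM with 7A and 7.33 and 8.57 CPM with DMSO (-1.52 ± 0.21; edgeR adjusted p 0.00169). It is among the shortest members, with 2618 bp of exons, and read -1.61 after the correction for GC content and length. USP9X (ENSG00000124486, chromosome X, 41085635 to 41236579), a large enzyme known to stabilise the survival protein MCL1, had 51.8 and 33.1 CPM with 7A and 103 and 135 CPM with DMSO (-1.49 ± 0.26; edgeR adjusted p 0.00689). The replicates of USP9X were uneven within both groups, yet the groups did not overlap.

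USP32, USP30, USP54 and USP28 complete the falls that held throughout. USP32 (ENSG00000170832, chromosome 17), a membrane-bound enzyme of the Golgi and endosomes, had 32.4 and 26.9 CPM with 7A and 73.7 and 83.7 CPM with DMSO (log2 fold change -1.41 ± 0.16; edgeR adjusted p 0.00101). USP30 (ENSG00000135093, chromosome 12), which sits in the outer mitochondrial membrane and opposes parkin-driven mitophagy, had 8.43 and 7.1 CPM with 7A and 18.3 and 17.6 CPM with DMSO (-1.21 ± 0.18; edgeR adjusted p 0.00205). USP54 (ENSG00000166348, chromosome 10), long described as inactive, had 11 and 12.4 CPM with 7A and 24.7 and 26.1 CPM with DMSO (-1.12 ± 0.16; edgeR adjusted p 0.00177). In all 3 genes both 7A values were below both DMSO values, with small gaps between replicates. USP28 (ENSG00000048028, chromosome 11), a partner of the damage protein TP53BP1 that also stabilises MYC, had 19.9 and 18.5 CPM with 7A and 31.9 and 32.3 CPM with DMSO (-0.74 ± 0.15; edgeR adjusted p 0.00586). Of the exon bases of USP54, 16.1% overlap PPP3CB-AS1 on the other strand.

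The windows around the start sites of 4 of these members are shown as examples, chosen after their values and matches were seen: that of the largest rise and those of 3 members that fell. Each runs from 250 bases before to 50 after a RefSeq start on GRCh38.p14, 5′ to 3′ on the gene's strand, with matches in capitals. The motifs, read on both strands, were the E-box CACGTG, the ETS site CCGGAAGT, the NRF1 core GCGCATGC, the CCAAT box CCAAT and the cAMP response element TGACGTCA, none of which contains another.
USP11 (chrX:47232759-47233058, plus strand): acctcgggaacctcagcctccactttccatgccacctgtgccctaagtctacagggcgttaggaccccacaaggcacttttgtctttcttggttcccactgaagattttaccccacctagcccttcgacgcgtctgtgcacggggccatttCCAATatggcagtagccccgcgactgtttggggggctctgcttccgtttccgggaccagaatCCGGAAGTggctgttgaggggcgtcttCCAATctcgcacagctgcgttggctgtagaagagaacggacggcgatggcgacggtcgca
USP28 (chr11:113875523-113875822, minus strand): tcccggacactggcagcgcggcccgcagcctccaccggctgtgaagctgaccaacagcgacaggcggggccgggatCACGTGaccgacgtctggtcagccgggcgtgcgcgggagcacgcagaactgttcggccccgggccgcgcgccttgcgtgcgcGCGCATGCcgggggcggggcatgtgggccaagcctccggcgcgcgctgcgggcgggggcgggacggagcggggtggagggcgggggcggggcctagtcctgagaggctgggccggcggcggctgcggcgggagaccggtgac
USP30 (chr12:109022839-109023138, plus strand): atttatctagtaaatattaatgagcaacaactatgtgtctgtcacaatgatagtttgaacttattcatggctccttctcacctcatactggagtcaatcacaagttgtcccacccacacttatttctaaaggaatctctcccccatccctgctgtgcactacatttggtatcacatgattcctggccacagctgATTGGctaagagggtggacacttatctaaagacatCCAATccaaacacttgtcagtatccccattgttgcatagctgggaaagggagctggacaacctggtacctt
USP32 (chr17:60392084-60392383, minus strand): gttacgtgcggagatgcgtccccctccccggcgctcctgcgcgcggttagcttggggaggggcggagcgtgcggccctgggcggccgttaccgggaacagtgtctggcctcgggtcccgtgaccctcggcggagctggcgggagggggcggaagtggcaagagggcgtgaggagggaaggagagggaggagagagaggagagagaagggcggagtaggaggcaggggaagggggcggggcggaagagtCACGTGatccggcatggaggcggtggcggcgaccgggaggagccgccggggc
The first, of the member that rose most, holds an ETS site and the CCAAT box at 2 places. The window of USP28 holds an E-box and an NRF1 core, that of USP30 the CCAAT box at 2 places, once on each strand, and that of USP32 an E-box. Windows were found for 38 of the 47 tested members, not for USP9X, USP18, USP24, USP31, USP37, USP41, USP42, USP43 and USP48. A gene can have more than 1 window and counted once if any held the motif, for the members and for all 27305 genes in the RefSeq table alike. That table was not limited to genes tested here. Shares among the tested genes, which may differ, were not counted. The E-box was in 0 of 4 members that rose, 3 of 13 that fell (USP6, USP28 and USP32) and 2 of 21 that were not called, against 8.77% of all genes and 7.26% of all 35116 windows. An ETS site was in 2 of 4 members that rose (USP11 and USP39), 1 of 13 that fell (USP30, in a window not shown) and 2 of 21 not called, against 4.95% of all genes and 4.14% of windows. The NRF1 core was in 1 of 4, 1 of 13 and 1 of 21, in the same order, against 3.68% of all genes and 3.05% of windows. The CCAAT box was in 3 of 4, 4 of 13 and 6 of 21, against 39.7% of all genes and 34.6% of windows. The cAMP response element was in 0 of 38 members, against 2.25% of all genes and 1.85% of windows. A match is a run of letters only.

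Each member was placed in only 1 role group, and the counts depend on the placing. Members placed elsewhere may also act on p53, MDM2 or MYC. Among the 9 tested members placed with these proteins, 5 fell (USP2, USP24, USP28, USP37 and USP42) and 1 rose (USP11), with a median of -0.52. Of all genes tested 24.6% fell and 23.9% rose, and of all members 38.3% and 8.51%. After the GC and length correction the 9 members again gave 5 falls and 1 rise, with a median of -0.49. Of all genes 24.5% were then lower and 24.8% higher. The enzymes best known for this axis, USP7 and USP10, were not called. USP7, which stabilises both MDM2 and p53, had 118 and 103 CPM with 7A and 113 and 123 CPM with DMSO, so the groups overlapped (log2 fold change -0.09 ± 0.13; edgeR adjusted p 0.574). USP10, which acts on p53 in the cytoplasm, had 45.0 and 67.8 CPM with 7A and 62.0 and 91.1 CPM with DMSO, with replicates farther apart than the group means (-0.44 ± 0.28; edgeR adjusted p 0.236). USP2, which acts on MDM2 and cyclin D1, had 5.47 and 7.15 CPM with 7A and 13.5 and 10.95 CPM with DMSO (-0.95 ± 0.22; edgeR adjusted p 0.0103). USP2 missed the threshold when DMSO replicate 1 (edgeR adjusted p 0.0632) or 7A replicate 1 (0.0593) was left out, and 17.5% of its exon bases overlap an antisense gene. USP42, a nuclear enzyme that acts on p53, had 21.5 and 21.9 CPM with 7A and 30.5 and 31.6 CPM with DMSO (-0.52 ± 0.14; edgeR adjusted p 0.0207), and it lost its call without any single library (edgeR adjusted p 0.055 to 0.128). USP24, a giant relative of USP9X, had 18.8 and 12.9 CPM with 7A and 29.8 and 46.0 CPM with DMSO (-1.26 ± 0.28; edgeR adjusted p 0.015), but 0.101 without 7A replicate 2. The nucleolar USP36 was not called (-0.19 ± 0.15; edgeR adjusted p 0.329).

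Of the 10 tested members placed with histones, chromatin or DNA repair, 4 fell (USP27X, USP47, USP48 and USP49) and 1 rose (USP3). The shares of all genes tested were 24.6% and 23.9%, and the median of these 10 members was -0.34. After the GC and length correction 1 of them was lower (USP27X) and 2 higher (USP1 and USP3), against 24.5% and 24.8% of all genes. USP47, which acts on DNA polymerase beta, had 14.4 and 10.9 CPM with 7A and 20.6 and 37.1 CPM with DMSO (log2 fold change -1.19 ± 0.32; edgeR adjusted p 0.0297). Its DMSO replicates were far apart, and the call was lost without DMSO replicate 2 (edgeR adjusted p 0.0762), 7A replicate 1 (0.106) or 7A replicate 2 (0.187). USP48, a nuclear enzyme of the NF-kB pathway and of histone H2A, had 38.4 and 27.1 CPM with 7A and 51.4 and 68.3 CPM with DMSO (-0.87 ± 0.22; edgeR adjusted p 0.0195). That call was lost without DMSO replicate 2 (edgeR adjusted p 0.0904) or 7A replicate 2 (0.106). USP49, a histone H2B deubiquitinase, had 9.97 and 19.6 CPM with 7A and 31.2 and 30.8 CPM with DMSO (-1.07 ± 0.33; edgeR adjusted p 0.0481), and was not called without DMSO replicate 1 (0.112) or DMSO replicate 2 (0.118). USP1, which with its activator WDR48 takes ubiquitin off FANCD2 and PCNA, had 61.4 and 49.0 CPM with 7A and 47.6 and 48.5 CPM with DMSO (0.20 ± 0.16; edgeR adjusted p 0.316). USP22, the catalytic subunit of the histone H2B deubiquitinase module of SAGA, had 315 and 269 CPM with 7A and 267 and 257 CPM with DMSO (0.16 ± 0.13; edgeR adjusted p 0.33). USP16, USP21 and USP45 were not called either.

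Of the 8 members placed with membranes and organelles, 6 fell (USP6, USP8, USP9X, USP30, USP32 and USP33) and 0 rose, with a median of -1.14. Of all genes tested 24.6% fell and 23.9% rose. After the GC and length correction 4 of the 8 members were lower (USP9X, USP20, USP30 and USP32) and 0 higher, with a median of -0.65. The shares of all genes were then 24.5% and 24.8%, and role groups were not tested against each other. USP8, which deubiquitinates receptors on early endosomes, EGFR among them, had 28.3 and 23.5 CPM with 7A and 45.0 and 63.0 CPM with DMSO (log2 fold change -1.06 ± 0.20; edgeR adjusted p 0.00585). Without 7A replicate 2 the call of USP8 was lost (edgeR adjusted p 0.0705), and its exons, 20639 bp, are the longest of the family. USP33, which binds the VHL protein and acts in receptor recycling, had 67.9 and 50.2 CPM with 7A and 80.3 and 86.9 CPM with DMSO (-0.50 ± 0.17; edgeR adjusted p 0.0458). USP33 was not called without DMSO replicate 1 (edgeR adjusted p 0.113), DMSO replicate 2 (0.197) or 7A replicate 2 (0.139). USP6, a hominoid-specific fusion of USP32 with a TBC-domain gene, had only 6 counts in each 7A library and 12 and 17 counts in DMSO replicates 1 and 2. The USP6 call (edgeR adjusted p 0.0376) was lost without any single library (0.0827 to 0.227), and reads from the near-identical part of USP32 may be split between the genes. USP19, which is anchored in the endoplasmic reticulum, had 127 and 132 CPM with 7A and 122 and 107 CPM with DMSO and was not called (0.17 ± 0.13; edgeR adjusted p 0.29), nor was USP20.

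Of 6 tested members of other or less characterised function, 2 fell (USP34 and USP38) and 0 rose, against 24.6% and 23.9% of all genes tested. USP34, one of the largest USPs and known for acting on axin in Wnt signalling, had 30.0 and 20.8 CPM with 7A and 59.9 and 129 CPM with DMSO (log2 fold change -1.89 ± 0.47; edgeR adjusted p 0.0422). The DMSO replicates differed by more than 2-fold, and the call was lost without 7A replicate 1 (edgeR adjusted p 0.108) or 7A replicate 2 (0.162), while without DMSO replicate 2 the value was -1.23. AHSA2P on the other strand overlaps 18% of its exon bases. USP38 had 27.8 and 23.2 CPM with 7A and 40.04 and 38.3 CPM with DMSO (-0.62 ± 0.16; edgeR adjusted p 0.0151), and was not called without DMSO replicate 1 (0.0826), DMSO replicate 2 (0.0662) or 7A replicate 2 (0.0575). The interferon-linked USP18, which removes ISG15, had 8.67 and 9.61 CPM with 7A and 9.56 and 9.3 CPM with DMSO (-0.04 ± 0.18; edgeR adjusted p 0.852). Its near-copy USP41 had 20 and 21 counts with 7A and 11 and 18 counts with DMSO, and reads of this pair cannot be assigned with certainty. The proteasome-bound USP14 had 69.7 and 58.2 CPM with 7A and 54.9 and 57.1 CPM with DMSO (0.19 ± 0.15; edgeR adjusted p 0.308). Of the other members that were not called, USP40 read 0.10, USP6NL 0.07, USP31 -0.08, USP45 -0.28, USP43 -0.38 and USP16 -0.41 on the log2 scale. The groups overlapped for USP40, USP6NL and USP16. Of the smaller role groups, splicing and relatives (3 tested) and the ubiquitin pool with the proteasome (3 tested) each had 1 rise and 0 falls. WDR48 partners (2 tested) and the ISG15 group (3 tested) had 0 of each. Of 3 tested members with doubtful catalysis or no USP activity, 1 fell and 0 rose. After the GC and length correction the ubiquitin pool group had 3 higher and 0 lower.

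Fold changes of USP members went with transcript length. Transcript length here is the merged length of all annotated exons of a gene, with a median of 7755 bp over the members and 4927 bp over all genes tested. Their GC content, of the longest transcript, had a median of 45.4%, against 49.4% over all genes. Among the 16 members with the longest exons (9235 to 20639 bp), 10 fell and 0 rose, with a median of -1.06. Among the 16 with the shortest (1592 to 5694 bp), 3 fell and 3 rose, with a median of -0.16. After the GC and length correction 4 of the longest were lower and 2 higher, with a median of -0.54. Of the shortest 5 were then lower and 5 higher, with a median of -0.34. Calls among all genes of like length were not counted, so these splits have no background. Across the 47 members, Pearson's r between log2 length and log2 fold change was -0.40 (Spearman's rho -0.44), and across 14011 genes it was -0.24. Genes of 1 sample share its library and depth, so these are descriptions only. Length also went with the ratios between replicates within each group. The log2 ratio of 7A replicate 2 over replicate 1 gave r = -0.30 over the members, and that of DMSO replicate 2 over replicate 1 gave r = 0.33. The signs of these 2 values depend on how the replicates were numbered, so they do not describe the groups. In the decile of all genes with the longest exons the median log2 fold change of 7A over DMSO was -0.57, and in the decile with the shortest 0.37.

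**Figure D2:**
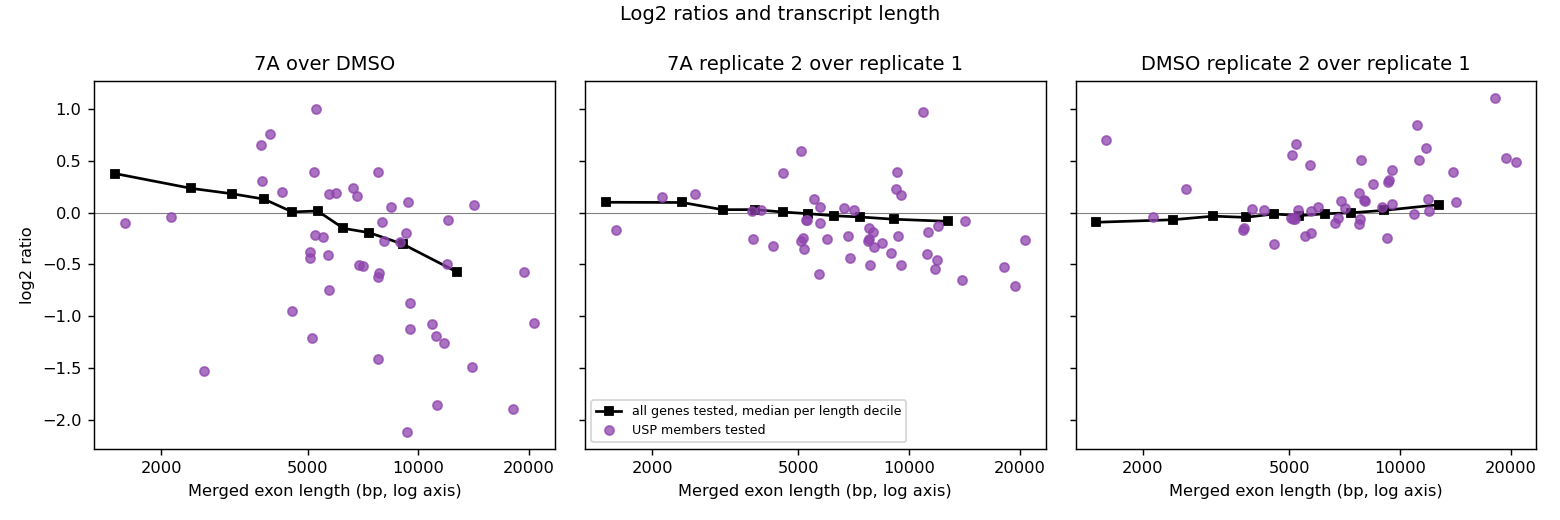
Log2 ratios against merged exon length (bp, log axis) for the 47 tested USP members (purple) and the median of all tested genes in each length decile (black squares), for 7A over DMSO and for replicate 2 over replicate 1 within each group. The black line falls with length for 7A over DMSO, to -0.57 in the longest decile. It also tilts within each group, in a direction that depends on how the replicates were numbered.

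After a correction that removed each library's trend with length and GC content, 14 of the 22 calls of members kept their direction and call. How many calls of all genes were kept was not counted. All 4 rises were kept: USP11 read 0.80 ± 0.11 (edgeR adjusted p 0.00405) and USP3 0.75 ± 0.12 (0.00527). USP39 read 0.66 ± 0.09 (edgeR adjusted p 0.00413), and USP5 moved from 0.65 to 0.37 ± 0.10 (0.0258). Of the 18 falls 10 were kept, those of USP2, USP9X, USP24, USP27X, USP28, USP30, USP32, USP37, USP42 and USP54. USP37 read -1.65 ± 0.23 (edgeR adjusted p 0.00423) and USP9X -0.84 ± 0.17 (0.0108) in that fit. The 8 falls that were lost were those of USP6, USP8, USP33, USP34, USP38, USP47, USP48 and USP49, and USP8 moved to -0.23 ± 0.13 (edgeR adjusted p 0.193). A further 6 members were called higher (USP1, USP12, USP13, USP14, USP31 and USP6NL) and 2 lower (USP20 and USP43). USP31 changed sign, with -0.08 as counted and 0.42 after correction (edgeR adjusted p 0.0266). The median over the members was then -0.23. When each library was also centred at its mean gene, 13 members were higher and 9 lower, against 30.5% and 19.8% of all genes.

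**Figure D3:**
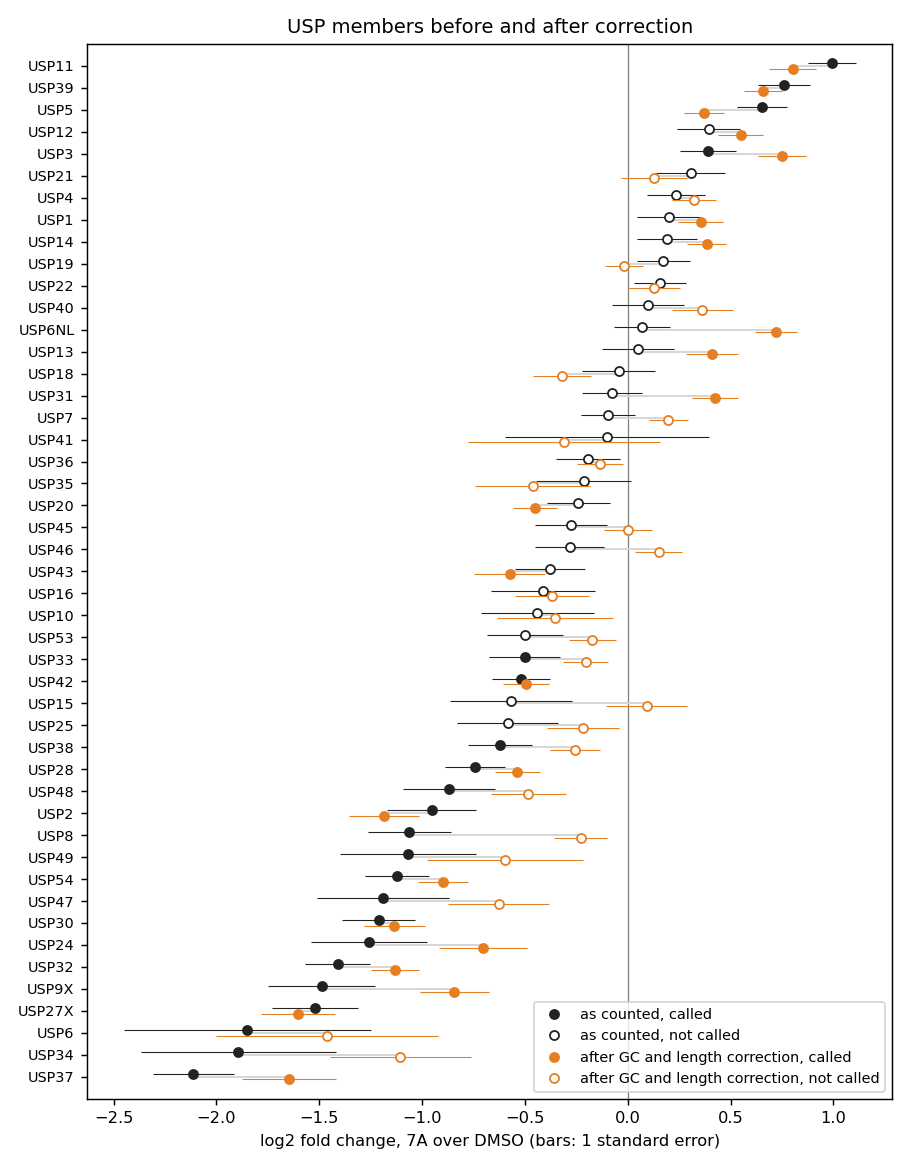
Log2 fold change of 7A over DMSO with its standard error for each tested USP member, as counted (black) and after the GC and length correction (orange), with filled points for calls. USP11 and USP37 stay at the ends of the order, while USP8 reads -1.06 as counted and -0.23 after correction.

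Related USP genes were set side by side. Of 18 pairs of relatives with both genes tested, 7 had the same call and 11 did not, and 0 had opposite calls. How often unrelated members differ was not counted. With 18 members lower, 4 higher and 25 not called, unrelated members must often differ too, and some genes are in more than 1 pair. In the group of USP4, USP11 and USP15, which share their domain layout, USP11 rose while USP4 had 41.0 and 42.1 CPM with 7A and 36.5 and 34.0 CPM with DMSO (log2 fold change 0.24 ± 0.14; edgeR adjusted p 0.2). USP15 had 32.8 and 20.1 CPM with 7A and 32.2 and 46.3 CPM with DMSO, and its groups overlapped (-0.57 ± 0.30; edgeR adjusted p 0.167). USP13, the relative of USP5, had 32.8 and 26.7 CPM with 7A and 26 and 31.4 CPM with DMSO (0.05 ± 0.18; edgeR adjusted p 0.829). The 2 groups overlapped for USP13 and were apart for USP5. USP53 had 41.6 and 30.3 CPM with 7A and 48.5 and 53.1 CPM with DMSO, just outside the threshold (-0.50 ± 0.18; edgeR adjusted p 0.0567), beside the fall of USP54. USP25, the relative of USP28, had 19.2 and 13.5 CPM with 7A and 20.3 and 28.7 CPM with DMSO (-0.58 ± 0.24; edgeR adjusted p 0.0902). USP20, which like its relative USP33 binds VHL, had 30.9 and 33.9 CPM with 7A and 41.2 and 35.2 CPM with DMSO (-0.24 ± 0.15; edgeR adjusted p 0.23). Neither USP25 nor USP20 was called as counted, although for both genes the 7A and DMSO libraries did not overlap. USP35, the relative of USP38, had 18.7 and 17.7 CPM with 7A and 16.4 and 25.9 CPM with DMSO (-0.21 ± 0.23; edgeR adjusted p 0.467). USP21, set beside USP2, had 23.2 and 19.5 CPM with 7A and 18.2 and 16.4 CPM with DMSO (0.31 ± 0.17; edgeR adjusted p 0.162). USP12 and USP46, which both need WDR48, read 0.39 ± 0.15 (edgeR adjusted p 0.0679) and -0.28 ± 0.17 (0.199). Differences between the genes of a pair were not tested.

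**Figure D4:**
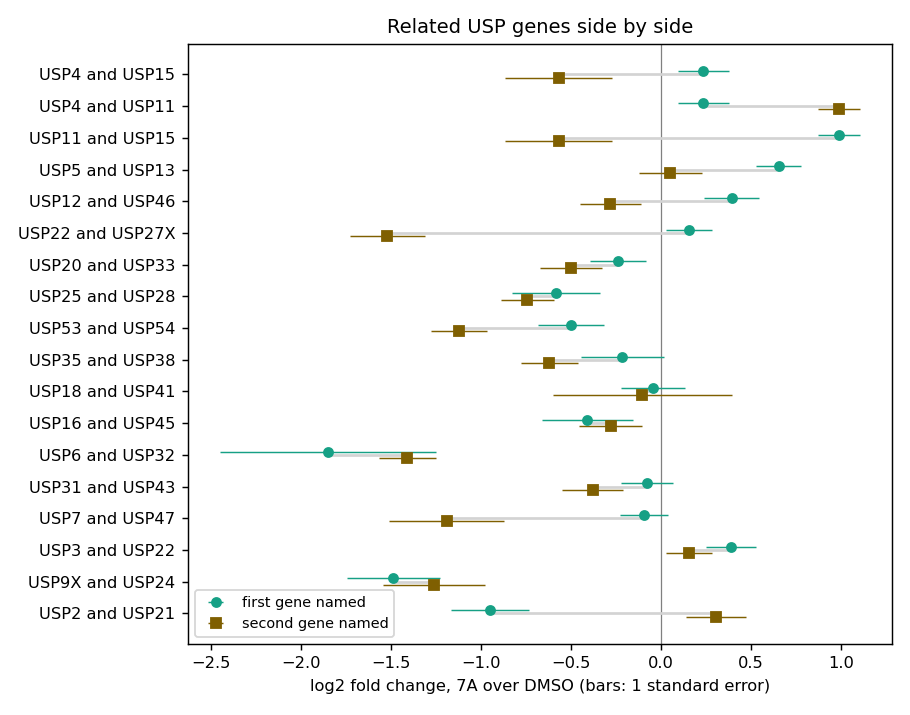
Log2 fold change of 7A over DMSO with its standard error for both genes of 18 pairs of related USPs, the first gene named as a circle and the second as a square. USP22 (0.16) and USP27X (-1.52) lie far apart, while USP9X (-1.49) and USP24 (-1.26) lie together.

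Per length, USP5, USP22 and USP11 were the best expressed members in both groups. USP5 had 51.2 and 51.7 CPM per kb of exons with 7A and 34.6 and 30.8 with DMSO, and USP22 had 46.3 and 39.5 with 7A and 39.2 and 37.7 with DMSO. In 7A libraries USP5 stood above USP22, and in DMSO libraries below it, and neither pair of ranges overlapped. USP11 had 42.1 and 39.9 CPM per kb with 7A, inside the range of USP22, and 20.4 and 20.8 with DMSO, next to USP19 with 21.3 and 18.6. By this measure USP9X was at rank 29 of 47 with 7A and rank 13 with DMSO, and USP37 at rank 45 with 7A and rank 26 with DMSO. All members together took 0.219% and 0.191% of the raw counts in 7A replicates 1 and 2, against 0.256% and 0.282% in DMSO replicates 1 and 2. These shares leave out the TMM factors, which were 0.9265 and 0.8968 with 7A and 1.096 and 1.098 with DMSO. On raw totals the median log2 fold change of all genes was -0.29, so lower shares with 7A are not particular to the USPs.

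The genes around the USPs are given by list, each to be read against the 23.9% of all tested genes that rose and the 24.6% that fell, and no difference between lists was tested. Of 39 tested deubiquitinases and relatives without a USP number, 9 rose and 11 fell, with a median of -0.15, and after the GC and length correction 9 were higher and 7 lower. CYLD, PAN2 and USPL1, which carry the USP fold without a number, all fell. USPL1, a SUMO protease, was not called without 7A replicate 1 (edgeR adjusted p 0.0689) or 7A replicate 2 (0.105). CYLD, a brake on NF-kB, had 11.96 and 9.67 CPM with 7A and 33.8 and 20.5 CPM with DMSO (log2 fold change -1.33 ± 0.27; edgeR adjusted p 0.00962), not called without 7A replicate 1 (0.0546), without 7A replicate 2 (0.089) or after the GC and length correction (0.113). Of 14 OTU enzymes 6 fell and 2 rose: OTUD7A fell by 2.47, VCPIP1 by 1.36 and OTUD3 by 0.79 (-0.33 and edgeR adjusted p 0.066 with the longest coding transcript as length), and OTUB1, which also blocks E2 enzymes, rose by 1.47 (75.7 and 114 CPM with 7A, 35.6 and 32.7 CPM with DMSO; edgeR adjusted p 0.0026). After the GC and length correction 4 OTU genes were lower and 1 higher, and with library totals alone 10 and 1. Of 11 JAMM metalloproteases and relatives, not all of them proteases (COPS6 is not), 4 rose and 1 fell. Their median of 0.24 became -0.02 with library totals alone. The proteasome lid enzyme PSMD14 rose by 0.84 and COPS6 by 0.68 (called in neither direction with the longest coding transcript as length, edgeR adjusted p 0.116), and MYSM1 fell by 0.66, which was no longer called without DMSO replicate 2 (edgeR adjusted p 0.0704). Of 3 tested UCH enzymes 1 rose, the proteasome-bound UCHL5 (0.72). Of 8 Josephin, MINDY and ZUP1 enzymes 2 rose and 1 fell, among them JOSD1 (0.44), lost without DMSO replicate 1 (edgeR adjusted p 0.075) or 2 (0.133), and ATXN3 (-0.73), lost without DMSO replicate 2 (0.0983) or 7A replicate 2 (0.0741) and after the GC and length correction (0.0707).

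Genes that make and attach ubiquitin were counted in 3 lists, and changes of single genes and medians are on the log2 scale. Of 36 E2 conjugating enzymes 16 rose and 1 fell, with a median of 0.39, and 18 rose and 2 fell after the GC and length correction. With library totals alone 9 rose and 1 fell. UBE2C, an E2 of the anaphase-promoting complex, rose by 1.30, the NEDD8 enzyme UBE2M by 1.11 and UBE2S by 1.07. BIRC6, a giant E2 hybrid, fell by 1.59, which was no longer called without 7A replicate 1 (edgeR adjusted p 0.0513) or 7A replicate 2 (0.0675). Of 9 E1 enzyme genes 1 rose, the SUMO E1 subunit SAE1 (1.10), and 4 were higher after the GC and length correction. The polyubiquitin gene UBB had 267 and 311 CPM with 7A and 306 and 272 CPM with DMSO and was not called as counted (edgeR adjusted p 0.998), though it was lower after the GC and length correction (-0.32; 0.0308). Of 10 ubiquitin and ubiquitin-like genes 6 rose and 1 fell, and the modifier gene SUMO3 rose by 1.07. After the GC and length correction 4 were higher and 2 lower, and with library totals alone 2 and 1.

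**Figure D5:**
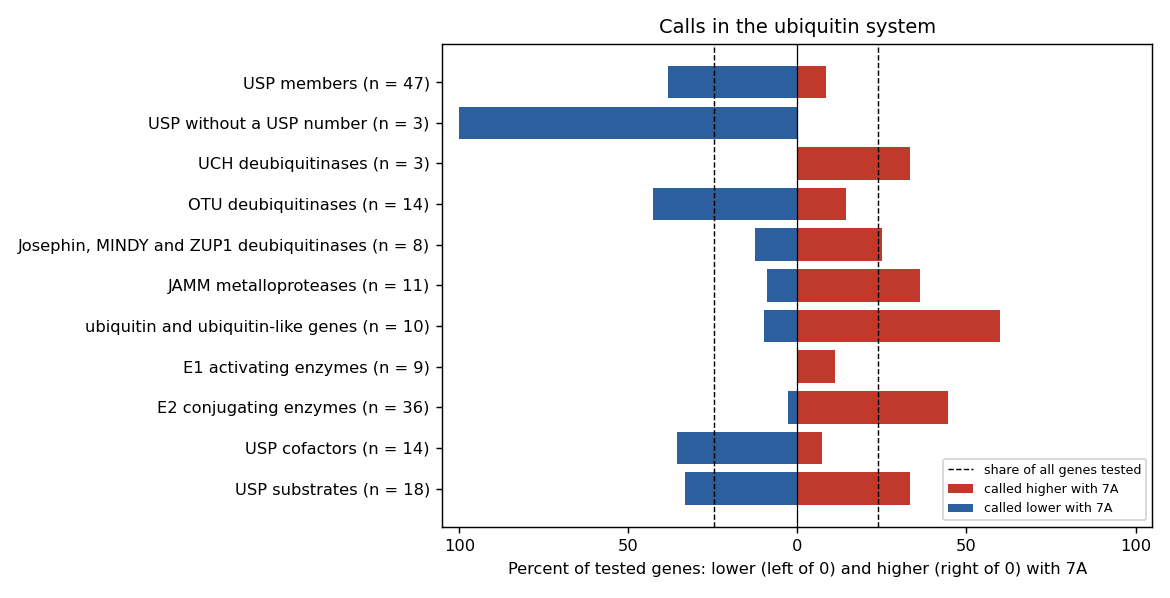
Percent of the tested genes in each list called higher (red, right of 0) and lower (blue, left of 0) with 7A, with the shares of all tested genes as broken lines. USP members show 38.3% lower and 8.51% higher. The list labelled JAMM metalloproteases also holds relatives that are not proteases.

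Partners and targets of USPs moved in both directions. Of 14 tested cofactors 5 fell and 1 rose, while after the GC and length correction 4 were lower and 5 higher. WDR48, the activator of USP1, USP12 and USP46, had 29.4 and 17.6 CPM with 7A and 41.0 and 60.7 CPM with DMSO (log2 fold change -1.11 ± 0.32; edgeR adjusted p 0.0388), which was no longer called without DMSO replicate 2 (0.103) or 7A replicate 2 (0.128). The second activator of USP12 and USP46, WDR20, fell by 1.15 (10.98 and 8.15 CPM with 7A, 22.6 and 19.9 CPM with DMSO; edgeR adjusted p 0.00367). The USP28 partner TP53BP1 fell by 1.23, the USP8 partner STAM2 fell by 0.91, and the endosomal HGS rose by 0.74. Of 18 genes whose proteins are USP substrates 6 rose and 6 fell. After the GC and length correction 5 were higher and 2 lower, and with library totals alone 3 and 6. The USP7 substrates UHRF1 and DNMT1 rose by 1.29 and 0.77 and the USP9X substrate MCL1 by 0.73, while the USP8 substrate EGFR fell by 0.63, which was no longer called with the GC and length correction (edgeR adjusted p 0.116). MDM2 had 152 and 116 CPM with 7A and 133 and 50.1 CPM with DMSO and was not called (edgeR adjusted p 0.508).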

How the data were processed

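The authors deposited a table of raw counts, one row for each gene. Its values are whole and sum to a different total in each library. No aligner, counting tool or strand setting is named in the sources used here. Besides hg38, the submitters' processing notes list the mouse builds GRCm38 and mm10, while the identifiers are human. Between 63.9% and 64.9% of counts from 1 to 20 were even in each library, so counts may not be independent fragments. Symbols, positions and exon lengths came from GENCODE 29 on GRCh38, promoter windows from RefSeq.

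Counts were fitted over all 14026 genes that passed filterByExpr (minimum count 10) with edgeR 4.0.16 in R 4.3.3: TMM scaling, robust quasi-likelihood F test, Benjamini-Hochberg adjustment over all genes tested, threshold 0.05. The standard error is the log2 fold change over the square root of F. CPM used the TMM-scaled library sizes. Level per kb is CPM over merged exon length. The floor of 3 counts is the upper 95% limit for an observed 0 and covers counting error only. The exact permutation p of 2 against 2 libraries cannot go below 0.333, so calls lean on the spread shared across genes, and p-values measure the spread between these libraries, which may be technical.

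The GC and length correction fitted, per library, splines (5 degrees of freedom) of gene-centred log2 CPM (prior count 2) on log2 exon length and on GC, and used them, less their mean, as offsets. The fits were tested on simulated data. DESeq2 1.42.0 and limma 3.58.1 served as alternatives, and Python 3.11.15 with matplotlib 3.10.9 drew the plots. Values in every library are given for the largest called changes, for called members of each role, for USP2, USP7, USP10, USP28 and USP42, and for related genes with differing calls. In the other lists up to 4 genes with the smallest adjusted p are named, with CYLD, MDM2, UBB and WDR48. Some genes that this rule names are not reported here. The members, lists and rules were chosen with earlier results of these data known.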

Additional observations from a re-analysis of the deposited data

How the results depend on the processing

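Over all genes 6795 were called. That count was 3860 at an adjusted p under 0.01 and ran from 3864 (without DMSO replicate 2) to 5673 with 1 library left out. The 18 falls among USP members became 8 at 0.01, 11 with the length correction alone, 12 with the GC and length correction, 11 when that used the longest coding transcript and 9 when libraries were also centred at their mean gene, and ran from 9 (without 7A replicate 2) to 14 with 1 library left out. The 4 rises became 10, 10 and 13 under those 3 GC and length corrections and stayed at 3 or 4 with 1 library left out. The last 2 corrections were chosen after seeing the data. Centring moved the median of all genes to 0.09, and library totals alone moved it to -0.29, where 25 members were lower and 3 higher. The cause of these shifts beyond what the corrections remove was not tested. USP31 turned to 0.42, 0.55 and 0.64 under the 3 corrections, and USP7 to 0.32 when centred. Other scalings, filters, DESeq2, limma-voom, halved and thinned counts left 15 to 21 members lower and 3 or 4 higher.

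The replicate block, in which equal replicate numbers are taken as pairs, gave 15 members lower and 3 higher and 6216 genes in all. The labels give no shared culture, and deviations of equally numbered libraries correlated at -0.05. With 2 libraries per group that value cannot decide whether equal numbers share a culture or batch. The main fit did not use the numbers as a pairing. Depth limits USP6 and USP41, with at most 21 counts per library, and the 5 untested members.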
